A study of Mus musculus with 8 samples.

Results

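Zinc transporters, metallothioneins and the zinc-sensing transcription factor Mtf1 were followed in subcutaneous fat of diabetic mice. The 10 genes were the exporters Slc30a1, Slc30a5 and Slc30a7, the importers Slc39a1, Slc39a8, Slc39a10 and Slc39a14, the metallothioneins Mt1 and Mt2, and Mtf1, out of 18193 genes named on the array. Every probe set annotated to exactly 1 of these genes was taken, whatever its values, which gave 22 probe sets. The 8 animals were male diabetic mice described as 8 weeks old. For 10 weeks, on 5 days per week, niacin-bound chromium (NBC), a chromium supplement in which the metal is held by niacin, was given by oral gavage to 4 mice (numbers 5, 9, 11 and 13) at 10 mg per kg body weight in water. The 4 placebo mice (numbers 6, 8, 10 and 14) received water alone. RNA of the whole fat depot of each mouse was read on 1 Affymetrix Mouse Genome 430 2.0 array, and precision is limited by having 4 arrays per group. The labels used here give neither the strain nor the cause of the diabetes.

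Zinc is held at very low free concentration inside cells by opposing transporter families. Slc30 proteins move zinc out of the cytosol, across the plasma membrane or into organelles, and Slc39 proteins move it into the cytosol. Metallothioneins are small cysteine-rich proteins that bind zinc and copper, and Mtf1 is activated by zinc and switches on their genes by binding short metal response elements. Metallothioneins also respond to glucocorticoids and inflammatory cytokines, and they are abundantly expressed in fat.

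The promoters of the genes known in the mouse as zinc-induced Mtf1 targets, Mt1, Mt2 and Slc30a1, are shown because the comparison below sets the signals of these genes against each other. RefSeq windows of GRCm38.p6 from 250 bases before to 50 after a gene's start were searched on both strands for the core of the metal response element, spelled as TGCACNC and TGCGCNC, so that no match can count for both. Each line gives the 250 bases before the start and the 30 bases from it, 5′ to 3′ on the gene's strand, with matches in capitals (a match on the opposite strand appears as its reverse complement). The windows lie at chr8:94178839-94179118 for Mt1, chr8:94172368-94172647 for Mt2 and chr1:191906531-191906810 for Slc30a1, all on the plus strand.
Mt1: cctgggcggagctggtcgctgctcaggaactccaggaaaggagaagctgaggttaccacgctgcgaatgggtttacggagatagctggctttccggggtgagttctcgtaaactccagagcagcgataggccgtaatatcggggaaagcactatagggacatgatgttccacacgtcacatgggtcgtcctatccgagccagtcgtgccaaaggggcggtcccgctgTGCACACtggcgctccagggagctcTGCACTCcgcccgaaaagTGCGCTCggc
Mt2: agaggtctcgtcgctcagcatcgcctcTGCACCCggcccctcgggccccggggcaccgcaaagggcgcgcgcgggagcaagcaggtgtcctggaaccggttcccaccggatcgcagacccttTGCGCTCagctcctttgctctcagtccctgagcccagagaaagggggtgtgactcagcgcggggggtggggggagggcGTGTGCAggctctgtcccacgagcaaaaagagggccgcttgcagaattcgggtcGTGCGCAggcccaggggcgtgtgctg
Slc30a1: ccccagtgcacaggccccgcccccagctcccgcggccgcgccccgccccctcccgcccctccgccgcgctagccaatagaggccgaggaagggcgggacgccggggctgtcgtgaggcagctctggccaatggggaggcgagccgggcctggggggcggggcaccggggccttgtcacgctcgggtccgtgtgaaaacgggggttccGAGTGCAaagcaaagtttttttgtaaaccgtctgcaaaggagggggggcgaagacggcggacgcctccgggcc

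Mt1 held 3 matches, Mt2 held 4 and Slc30a1 held 2, the second of which begins at base 31 from the start and so lies past the printed stretch. Among all 32851 RefSeq windows, 25.7% held at least 1 match, 7.11% at least 2, 1.97% at least 3 and 0.517% at least 4. The Mt2 and Mt1 windows begin 6471 bases apart on chromosome 8. Windows were found for 9 of the 10 genes, and Slc39a14 is named only. Slc39a8 had 1 match in 1 of its windows and Slc30a5 had 1, while these letters did not occur in the windows of Slc30a7, Slc39a1, Slc39a10 and Mtf1. A match is a description of letters and not evidence that Mtf1 binds there. The starts are those given by RefSeq, and elements outside these windows are not counted.

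The comparison of NBC with placebo mice asked whether transcripts of zinc handling in this depot differed after oral chromium and niacin. The plasma membrane exporter Slc30a1, on its brighter probe set, and the importer Slc39a1 had the highest signals relative to placebo among the tested probe sets, 1.49 and 1.41 times by the fitted log2 differences. Each of these probe sets was higher in all 4 NBC mice than in all 4 placebo mice. The metallothioneins Mt1 and Mt2, which lay among the bright transcripts, had NBC means 1.06 and 1.02 times those of placebo, and their groups overlapped. With p-values of limma's fit adjusted by Benjamini and Hochberg's method over 22519 probe sets, 0 of the 17 tested probe sets passed (smallest adjusted p = 0.653), nor did any other (0%), while 1400 had an unadjusted p under 0.05.

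Of the 22 probe sets, 17 passed the filter on dim signals, with at least 1 for each gene, and 5 lay below it. The log2 difference, NBC minus placebo, was above 0 for 10 of the 17 tested and below for 7, where 47.9% of all tested probe sets lay above 0. The median was 0.045, against -0.010 over all probe sets tested. At an unadjusted limma p under 0.05 there were 2 of 17, both higher in NBC, where the share over all probe sets was 6.22%, with 3.28% higher and 2.94% lower in NBC. That share was 11.4% without NBC mouse 9, and 2 of the 17 were still at that level. The groups did not overlap for 3 of 17, all higher in NBC, where 1.79% of all probe sets lay higher without overlap and 2.06% lower. With each gene read by its brightest tested probe set, 2 of the 10 did not overlap, where 3.93% of all genes did not in either direction. The genes were chosen with earlier results of these data known, and the counts of 2 and 3 are small.

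**Figure D1:**
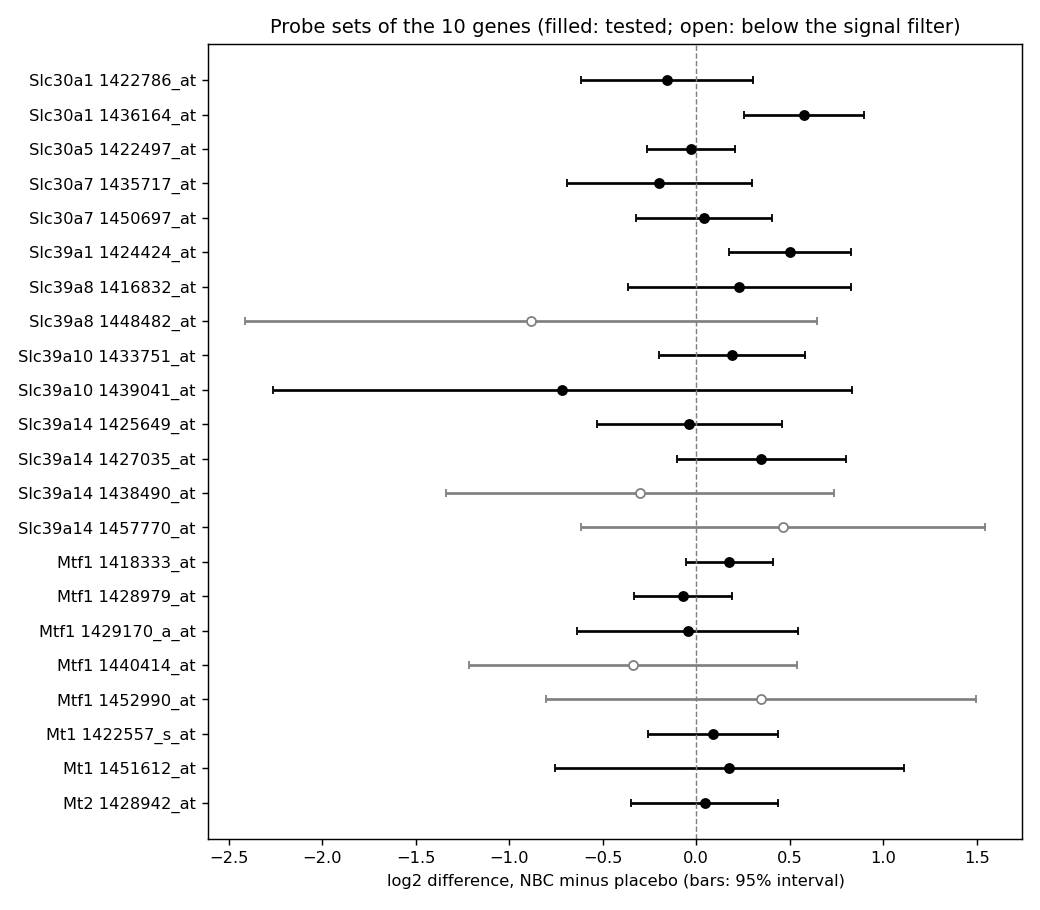
The x axis gives the log2 difference (NBC minus placebo) of each of the 22 probe sets of the 10 genes, with bars for the 95% interval of limma's moderated fit; filled points were tested and open points lay below the signal filter. The intervals of Slc30a1 1436164_at (0.26 to 0.90) and Slc39a1 1424424_at (0.18 to 0.83) lie to the right of 0, and every other interval includes 0.

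Slc30a1 is the exporter that carries zinc out of the cell, and its transcription is driven by Mtf1 when zinc is high. Its brighter probe set, 1436164_at, read 2248.8, 2980.6, 2555.7 and 3109.4 in NBC mice 5, 9, 11 and 13, against 1724.8, 1629.9, 1819.2 and 2070.9 in placebo mice 6, 8, 10 and 14. All 4 NBC mice stood above the highest placebo mouse, number 14, and NBC mouse 5 was closest to it. The means were 2724 ± 395 in NBC and 1811 ± 190 in placebo mice (SD, n = 4 each). The log2 difference was 0.58 (SE 0.14, 95% interval 0.26 to 0.90; limma adjusted p = 0.653), rank 97 of 22519 by p.

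The other Slc30a1 probe set did not show this. On 1422786_at the signals were 481.8, 699.2, 523.0 and 585.5 in NBC mice 5, 9, 11 and 13, against 556.5, 752.8, 838.4 and 460.7 in placebo mice 6, 8, 10 and 14. The groups overlapped, with placebo mouse 14 lowest and placebo mouse 10 highest, and the log2 difference was -0.16 (SE 0.20, 95% interval -0.62 to 0.30). It was -0.30 without placebo mouse 14 and -0.03 without placebo mouse 10. Within each mouse the log2 value of 1436164_at exceeded that of 1422786_at by 2.16, 2.05, 2.23 and 2.36 in NBC mice 5, 9, 11 and 13, and by 1.59, 1.09, 1.09 and 2.11 in placebo mice 6, 8, 10 and 14. This gap between the probe sets averaged 2.20 ± 0.13 in NBC and 1.47 ± 0.49 in placebo mice (SD, n = 4 each). The gap differed by 0.73 between the groups, with a two-sided exact permutation p of 0.0571, where 4 against 4 cannot give less than 0.0286. That this pair disagrees was known from earlier results of these data when the test was chosen, so its p is no independent support. Among placebo mice only number 14 had a gap within the NBC range, above that of NBC mouse 9 and below those of NBC mice 5, 11 and 13. Which transcripts of the gene each probe set reads was not tested.

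**Figure D2:**
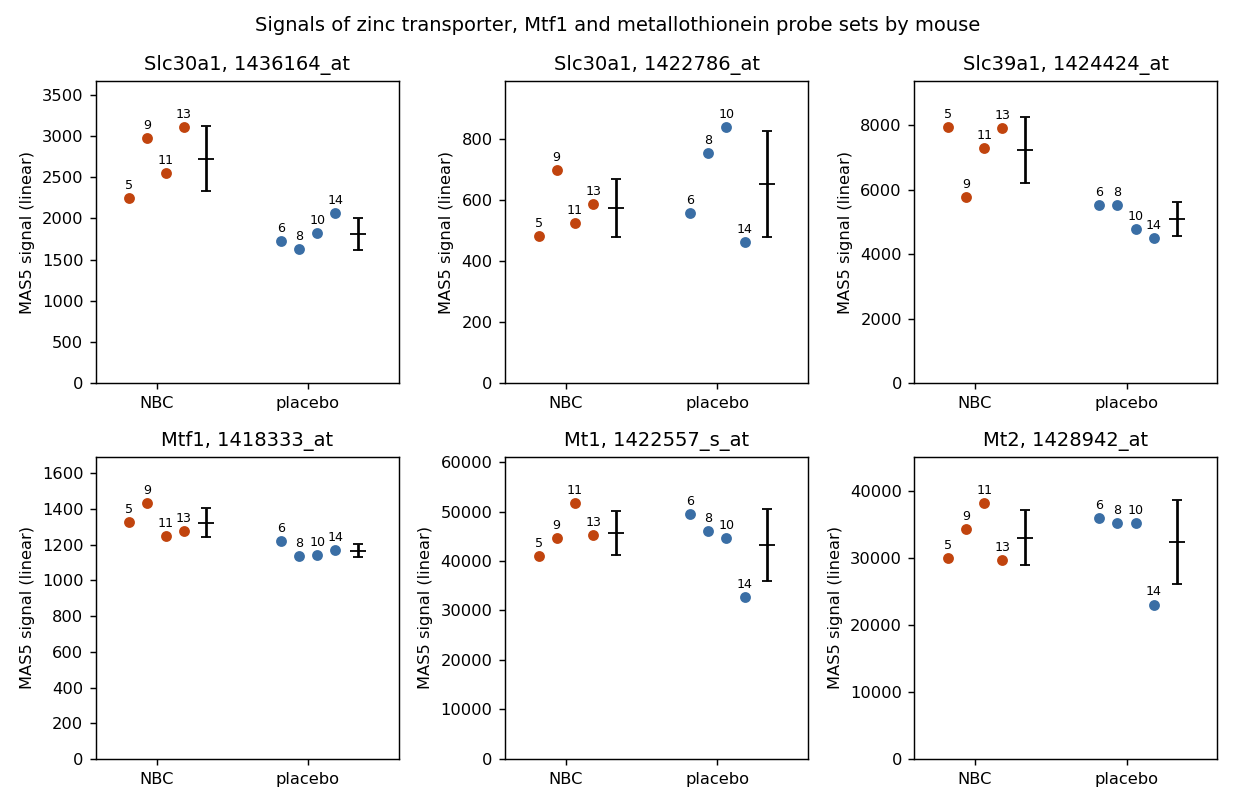
The y axes give the MAS5 signal on a linear scale for 6 probe sets, with 1 point per mouse labelled by its number, NBC mice at the left and placebo mice at the right of each panel, and a bar for the mean ± SD of 4 mice. Slc30a1 1436164_at, Slc39a1 and Mtf1 1418333_at do not overlap between groups, while Slc30a1 1422786_at, Mt1 and Mt2 do.

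For the exporters of the secretory pathway, the groups overlapped on every probe set. Slc30a5, which supplies zinc to enzymes of the early secretory pathway, read 4847.5, 5209.4, 4782.3 and 4435.3 in NBC mice 5, 9, 11 and 13, against 4726.7, 4851.5, 5041.6 and 5030.9 in placebo mice 6, 8, 10 and 14. NBC mice held both the highest and the lowest value. Its log2 difference of -0.030 had a 95% interval of -0.27 to 0.21, that is, an NBC level between 0.832 and 1.15 times that of placebo. Slc30a7, an exporter into the Golgi, differed by -0.20 (SE 0.22) on 1435717_at, where NBC mouse 5 alone was low at 1700.3 and the other NBC mice read 2699.9 to 3273.7, against 2303.3 to 3569.0 in placebo mice. Its second probe set, 1450697_at, differed by 0.042 (SE 0.16), with 1094.9 to 1676.0 in NBC and 1266.8 to 1632.4 in placebo mice. The signs of the Slc30a7 probe sets disagree, and neither interval excludes 0. Without NBC mouse 5 the difference on 1435717_at was -0.0032.

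Slc39a1 is a widely expressed zinc importer of the plasma membrane, read here by a single probe set, 1424424_at. It gave 7933.0, 5756.2, 7299.5 and 7914.4 in NBC mice 5, 9, 11 and 13, against 5530.8, 5513.7, 4772.3 and 4495.0 in placebo mice 6, 8, 10 and 14. NBC mouse 9 lay just above placebo mice 6 and 8, and the other 3 NBC mice lay well above them. The means were 7226 ± 1023 in NBC and 5078 ± 525 in placebo mice (SD, n = 4 each). Slc39a1 differed by 0.50 on the log2 scale (SE 0.14, 95% interval 0.18 to 0.83; limma adjusted p = 0.730), rank 211 by p. When each array was centred on its median log2 value, the difference was 0.49 and the groups overlapped.

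Slc39a14 and Slc39a8 are closely related importers that also carry manganese, and Slc39a14 is known in mouse liver as a gene induced by interleukin 6. On its brightest probe set, 1427035_at, Slc39a14 read 765.0, 1346.6, 1164.9 and 1026.4 in NBC mice 5, 9, 11 and 13, against 837.0, 644.9, 817.0 and 1034.4 in placebo mice 6, 8, 10 and 14. NBC mice 9 and 11 stood above all placebo mice, and NBC mouse 5 lay among the lower placebo mice. The log2 difference was 0.35 (SE 0.20, 95% interval -0.10 to 0.80; limma unadjusted p = 0.116), and without NBC mouse 5 it was 0.50 (unadjusted p = 0.0246, adjusted p = 0.933). The other tested Slc39a14 probe set, 1425649_at, differed by -0.037 (SE 0.22), and the groups overlapped. The remaining probe sets, 1438490_at and 1457770_at, lay below the filter at 24.7 to 178.1 in NBC and 29.4 to 165.2 in placebo mice. Of 15 listed genes of interleukin 6 signalling and the acute phase, 12 were measured, all of them above 0 (median 0.10), where 48.5% of all genes lay above 0. Among these were the acute phase gene Saa3, which differed by 1.21 (SE 0.32), and the cytokine signalling inhibitor Socs3, which differed by 0.77 (SE 0.21), both without overlap (limma adjusted p = 0.718 for each), where 3.93% of all genes did not overlap. With each array centred on its median, Socs3 overlapped. The smallest differences were those of the acute phase genes Serpina3n (0.007, SE 0.18), Orm1 (0.041, SE 0.19) and Hp (0.043, SE 0.12), all with overlap. The part of interleukin 6 in the Slc39a14 signals was not tested.

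Slc39a8 read 1467.1, 1026.1, 1558.1 and 850.7 in NBC mice 5, 9, 11 and 13 on 1416832_at, against 1389.9, 1053.5, 649.7 and 1087.7 in placebo mice 6, 8, 10 and 14. Mice of both groups spanned a similar range, and the log2 difference was 0.23 (SE 0.26, 95% interval -0.37 to 0.83). It was 0.026 without placebo mouse 10 and 0.39 without NBC mouse 13. Its second probe set, 1448482_at, lay below the filter, at 9.5 to 188.7 in NBC and 48.6 to 219.9 in placebo mice.

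Slc39a10 is a plasma membrane importer that zinc lowers through Mtf1 in the mouse, the opposite of Slc30a1. On 1433751_at it read 2762.7, 2872.0, 2013.9 and 3513.6 in NBC mice 5, 9, 11 and 13, against 2264.1, 2492.7, 2190.0 and 2670.1 in placebo mice 6, 8, 10 and 14. NBC mice 5, 9 and 13 stood above all placebo mice and NBC mouse 11 stood below all of them. The log2 difference was 0.19 (SE 0.17, 95% interval -0.20 to 0.58), and without NBC mouse 11 it was 0.34 (limma unadjusted p = 0.0470, adjusted p = 0.859). The second probe set, 1439041_at, scattered from 44.6 to 624.9 in NBC and from 233.8 to 614.5 in placebo mice. Its log2 difference of -0.72 had an SE of 0.68, and without NBC mouse 5, the lowest of all mice, it was -0.07.

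Mtf1, the zinc-sensing factor, was read by 5 probe sets, of which 3 were tested. On 1418333_at it read 1328.7, 1434.5, 1250.5 and 1277.0 in NBC mice 5, 9, 11 and 13, against 1219.8, 1135.8, 1142.8 and 1168.4 in placebo mice 6, 8, 10 and 14. The groups did not overlap, but the gap was narrow: NBC mouse 11 exceeded placebo mouse 6 by a few percent of signal. The log2 difference was 0.18 (SE 0.10, 95% interval -0.06 to 0.41; limma adjusted p = 0.805), and the groups overlapped when each array was centred on its median. The brightest Mtf1 probe set, 1428979_at, differed by -0.07 (SE 0.12) and 1429170_a_at by -0.05 (SE 0.26), both with overlap. The dim probe sets 1440414_at and 1452990_at read 9.8 to 131.2 in NBC and 12.6 to 108.6 in placebo mice. Of the 6 genes with several tested probe sets, 5 had probe sets of opposite sign, and Mtf1, Slc30a1, Slc30a7, Slc39a10 and Slc39a14 were those.

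Mt1 and Mt2 encode the widely expressed metallothioneins that bind zinc in most tissues. Mt1 (1422557_s_at) read 40987.2, 44666.4, 51763.1 and 45308.3 in NBC mice 5, 9, 11 and 13, against 49540.0, 46024.0, 44625.4 and 32809.6 in placebo mice 6, 8, 10 and 14. Placebo mouse 14 was the lowest of all, and the other 7 mice overlapped. The means were 45681 ± 4479 in NBC and 43250 ± 7261 in placebo mice (SD, n = 4 each), and the log2 difference was 0.091 (SE 0.15), with a 95% interval of -0.26 to 0.44, that is, an NBC level between 0.837 and 1.36 times that of placebo. A second, far dimmer probe set of Mt1, 1451612_at, read 172.8 to 724.5 in NBC and 276.3 to 619.0 in placebo mice, a log2 difference of 0.18 (SE 0.41). Mt2 (1428942_at) read 29930.8, 34366.1, 38212.0 and 29618.5 in NBC mice 5, 9, 11 and 13, against 35894.8, 35227.0, 35265.8 and 23038.6 in placebo mice 6, 8, 10 and 14. Placebo mouse 14 was again lowest and NBC mouse 11 highest. The Mt2 means were 33032 ± 4078 in NBC and 32357 ± 6220 in placebo mice (SD, n = 4 each), and Mt2 differed by 0.045 on the log2 scale (SE 0.17, 95% interval -0.35 to 0.44). The log2 difference of the bright Slc30a1 probe set, 0.58, lies outside the intervals of Mt2 and of the bright Mt1 probe set. It lies inside that of the dim Mt1 probe set, -0.76 to 1.11. The interval of that Slc30a1 probe set, 0.26 to 0.90, overlaps all of these, and the -0.16 of the other Slc30a1 probe set lies inside them. Whether the metallothioneins and Slc30a1 differ in their change was not tested. Without placebo mouse 14 the differences were -0.04 for Mt1 and -0.11 for Mt2. Of 10 glucocorticoid response genes, all measured, 4 were above 0 and 6 below (median -0.03), where 48.5% of all genes lay above 0. At an unadjusted limma p under 0.05 there were 0, where 2.73% of all genes were higher and 2.71% lower. Tsc22d3 differed by -0.30 (SE 0.14), Per1 by 0.27 (SE 0.12) and Fkbp5 by -0.36 (SE 0.20), all with overlap. With a variance trend over intensity, unadjusted limma p was 0.0216 for Tsc22d3 and 0.0470 for Per1. The part of glucocorticoids in the metallothionein signals was not tested.

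Across the 8 arrays Mt1 and Mt2 moved together. Pearson's r of their log2 signals was 0.934 (two-sided exact permutation p = 0.00221, adjusted over 5 relations p = 0.0110) and Spearman's rho was 0.762 (exact permutation p = 0.0368, adjusted p = 0.184). Deviations from the group means gave r = 0.942. Without placebo mouse 14 and NBC mouse 11, the mice farthest from the Mt1 median, r was 0.636 over 6 arrays (exact permutation p = 0.190). The relation was thus not clear without those mice. Taking out the extremes of Mt1 also narrows its range, which tends to lower r, so this cannot show that the relation rests on them. Without placebo mouse 14 alone r was 0.763 (adjusted exact permutation p = 0.243) and without NBC mouse 11 alone 0.920 (adjusted exact permutation p = 0.0784). By Affymetrix naming an _s_at probe set can match more than 1 transcript, and whether the Mt1 probe set also reads Mt2 was not tested. Of the other relations of Mt1, that with Slc39a10 gave r = -0.370, that with Slc39a14 gave -0.013 and that with Mtf1 (1428979_at) gave 0.349, with adjusted exact permutation p of 0.667, 0.977 and 0.667. Spearman's rho for these was -0.429, 0.095 and 0.286 (adjusted exact permutation p = 0.748, 0.882 and 0.835), and r without the same mice was -0.327, -0.003 and 0.349. For Slc39a10, Slc39a14 and Mtf1 in turn, deviations from the group means gave r = -0.527, -0.180 and 0.468. For Slc30a1 1436164_at, whose groups lie apart, the pooled r of 0.043 mixes the group difference with the spread among mice. Deviations from the group means gave r = -0.364 over 8 arrays, and the pooled value without the same mice was -0.352. No test is drawn from these values, since the 4 mice of a group are too few.

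**Figure D3:**
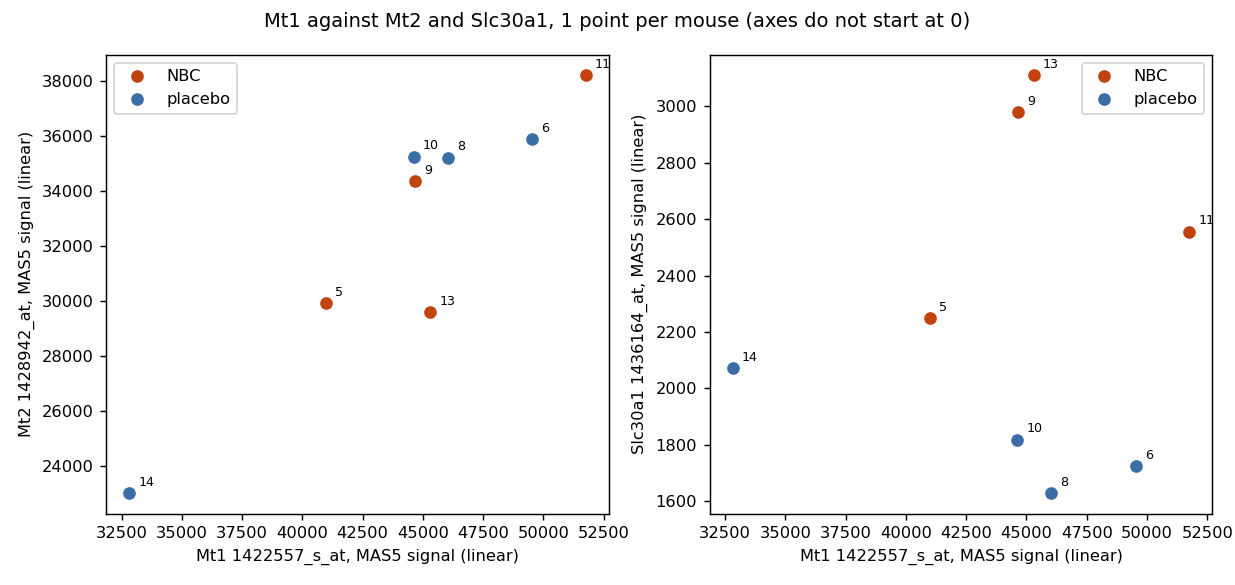
Each point is 1 mouse, labelled by number and coloured by group; the x axis is the Mt1 signal and the y axes are the Mt2 signal (left) and the Slc30a1 1436164_at signal (right), all linear MAS5 signals on axes that do not start at 0. Mt1 and Mt2 rank placebo mouse 14 lowest and NBC mouse 11 highest. On the right the NBC mice lie above all placebo mice in Slc30a1, and placebo mouse 14 lies apart at the lowest Mt1 signal.

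The zinc transporters outside these 10 genes went both ways. Of 7 other Slc30 genes on the list, 4 were measured above the filter, 2 above 0 and 2 below, with a median log2 difference of 0.031 and none at an unadjusted p under 0.05. The exporter Slc30a9 differed by 0.17 (SE 0.14). Of 10 other Slc39 genes, 6 were measured, 3 above 0 and 3 below, with a median of 0.008. Slc39a9 alone of these 6 was at an unadjusted limma p under 0.05, and it alone did not overlap, being lower in NBC. It read 1585.3, 2301.9, 2305.5 and 1985.2 in NBC mice 5, 9, 11 and 13, against 2416.4, 2649.6, 2932.4 and 2488.6 in placebo mice 6, 8, 10 and 14. Its log2 difference was -0.37 (SE 0.15; limma adjusted p = 0.778), and the groups overlapped when each array was centred on its median. Mt3, the metallothionein known from brain, was dim and scattered, at 22.8 to 734.4 in NBC and 251.1 to 509.6 in placebo mice (log2 difference -0.86, SE 0.70), and without NBC mouse 5 the difference was -0.12. All 7 other genes reported as Mtf1 targets were measured, 4 above 0 and 3 below, with a median of 0.007 and 0 at an unadjusted p under 0.05. Among them Hif1a differed by 0.21 (SE 0.14) and Csrp1 by -0.21 (SE 0.14). Of 13 measured genes of copper, iron and other metal handling, 6 were above 0 and 7 below. Among these 13, only Atp7a was at an unadjusted limma p under 0.05 or without overlap. The copper exporter Atp7a was higher without overlap, at 3249.3, 3833.3, 3325.2 and 3845.6 in NBC mice 5, 9, 11 and 13, against 3005.6, 3051.5, 2686.8 and 3030.2 in placebo mice 6, 8, 10 and 14 (log2 difference 0.27, SE 0.11; limma adjusted p = 0.778). By gene, 48.5% of all 11662 genes lay above 0, with a median of -0.006, and 2.73% were higher and 2.71% lower in NBC at an unadjusted p under 0.05. Counting both directions, 3.93% of all genes did not overlap.

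**Figure D4:**
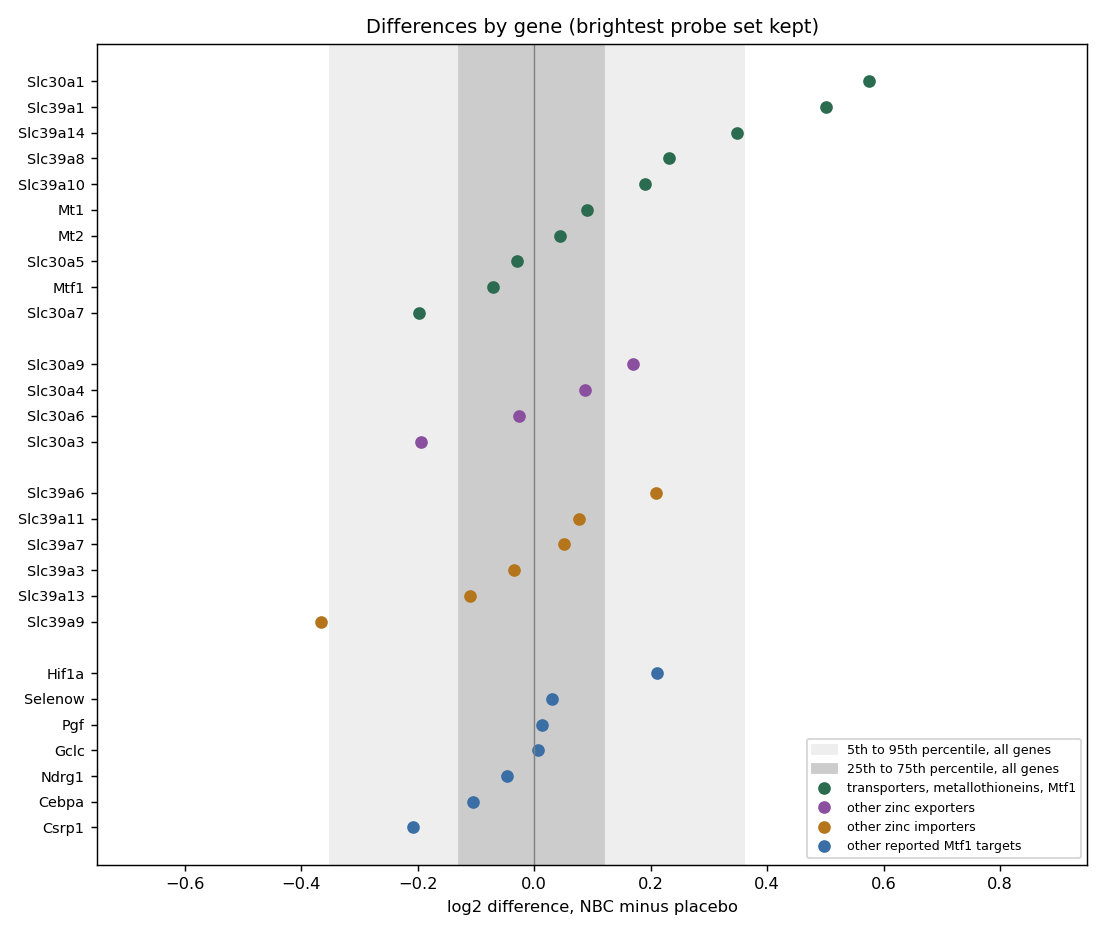
The x axis gives the log2 difference (NBC minus placebo) of the brightest probe set kept for each gene, for the 10 genes and 3 lists of related genes; grey bands mark the middle 50% and the 5th to 95th percentile (-0.35 to 0.36) of all 11662 genes. Slc30a1 (0.58) and Slc39a1 (0.50) lie to the right of the wider band and Slc39a9 (-0.37) lies to its left.

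Marker genes of several other cell types in the depot differed in level between the groups, none past the adjusted threshold. Over all genes, 48.5% lay above 0 and 2.73% were higher in NBC at an unadjusted limma p under 0.05. The 8 fibroblast markers were all above 0 (median log2 difference 0.19). Of these 8, 3 were higher at an unadjusted limma p under 0.05 and without overlap, where 3.93% of all genes did not overlap. The summed fibroblast signal ran from 228385 to 248457 in NBC and from 189850 to 221165 in placebo mice, without overlap. The 12 skeletal muscle markers were all above 0, and 11 had an unadjusted limma p under 0.05. Their summed signal was 160009, 17292.9, 170422 and 154800 for NBC mice 5, 9, 11 and 13, against 4772.5 to 23810.2 for placebo animals. Slc39a1 was lowest among NBC mice in mouse 9, the NBC mouse with little muscle signal, where it still exceeded every placebo mouse. Slc30a1 1436164_at was second highest in that mouse, and without NBC mouse 9 the log2 differences were 0.61 for Slc39a1 and 0.53 for Slc30a1 1436164_at. The 10 macrophage markers were all above 0 (median 0.24) and overlapped in sum, with 152120 to 229584 in NBC and 114960 to 167071 in placebo mice. Of these 10, 2 were higher at an unadjusted limma p under 0.05, 1 of them without overlap. NBC mouse 13, the highest in macrophage signal, was also highest in Slc30a1 1436164_at. The 8 measured adipocyte markers, which were bright in all mice, were all below 0 (median -0.05), with summed signals of 507711 to 580795 in NBC and 510030 to 608693 in placebo mice. Of these 8, 1 (Lipe) was lower in NBC without overlap, and 0 had an unadjusted limma p under 0.05. Brown adipocyte markers went both ways, with 3 of 6 measured above 0 (median -0.14) and 2 lower in NBC at an unadjusted limma p under 0.05, where 2.71% of all genes were. The lipid droplet gene Cidea read 838.2, 862.0, 675.2 and 874.7 in NBC mice 5, 9, 11 and 13, against 2099.3, 1722.3, 1188.4 and 1673.1 in placebo mice 6, 8, 10 and 14. It was lower without overlap (log2 difference -0.996, SE 0.18; limma adjusted p = 0.653), and Ucp1, the uncoupling protein of brown fat, differed by -1.39 (SE 0.40; limma adjusted p = 0.730) with overlap. Lymphocyte markers were above 0 for 1 of 7 (median -0.98), with 0 at an unadjusted limma p under 0.05. Their summed signal was 7404.1 to 22009.4 in NBC and 10076 to 16957 in placebo mice. The part that fibroblast, muscle, macrophage, brown adipocyte or lymphocyte content had in the transporter signals was not tested. In RNA of a whole depot, more cells of a type and more RNA per cell cannot be told apart.

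**Figure D5:**
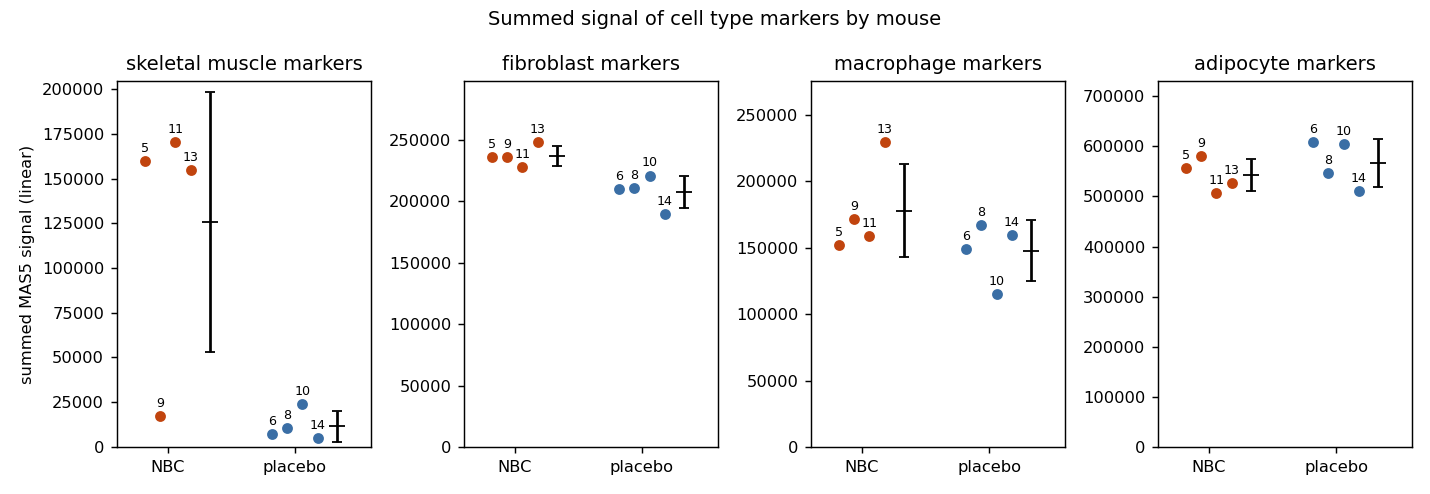
The y axes give the summed linear MAS5 signal of the markers of 4 cell types, with 1 point per mouse labelled by its number, NBC mice at the left and placebo mice at the right, and a bar for the mean ± SD of 4 mice. Fibroblast sums do not overlap between groups, 3 of the 4 NBC mice are high in muscle markers, and macrophage and adipocyte sums overlap.

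Genes whose pattern over the 8 arrays was most like that of a zinc gene were named by Pearson's r over all 11662 genes, as a description of 8 arrays and with no test. For Slc30a1 1436164_at these were the membrane protease gene Adam17 (r = 0.986), the inhibitory immunoglobulin receptor gene Fcgr2b (r = 0.959) and the Golgi tethering gene Cog5 (r = 0.954). They lay 0.45 (SE 0.14), 0.36 (SE 0.12) and 0.71 (SE 0.19) higher on the log2 scale in NBC than in placebo mice. Since the groups of Slc30a1 1436164_at lie apart, such differences follow from choosing genes by r and are no separate finding. For Mt1 the most alike genes were the transcription repressor gene Bcl6b (r = 0.969), the immediate early gene Egr1 (r = 0.965) and Tmem247 (r = 0.949). Their log2 differences were 0.07 (SE 0.21), 0.37 (SE 0.33) and 0.19 (SE 0.26). Without placebo mouse 14 they were -0.13, 0.070 and -0.047.

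All 8 arrays had the same trimmed mean signal, 1500.01 (2% taken off either end). The deposited signals thus share a common scale, and this value cannot show whether the arrays were alike. Median signals ran from 286.1 to 329.6 in NBC and from 285.5 to 323.3 in placebo mice. The ratio of the 3′ to the 5′ Gapdh control signal, a sign of RNA integrity, was 1.47, 0.844, 1.28 and 1.11 in NBC mice 5, 9, 11 and 13 and 0.924 to 1.04 in placebo mice. NBC mice 5, 11 and 13 stood above every placebo mouse in this ratio and NBC mouse 9 below all of them. The part of RNA integrity in the signals of the zinc genes was not tested.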

How the data were processed

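Subcutaneous fat of 4 NBC and 4 placebo mice was measured on 1 array each. The deposited values are linear signal intensity per probe set. Per the submitters' processing notes the authors used MAS5, whose version is not given. No scaling was added here. Groups and mouse numbers come from the sample titles. Of 45101 probe sets, 64 controls were left out. The platform annotation named 1 gene for 34945, several for 932 and none for 9160. The deposited signals were transformed as log2(signal + 26), 26 being the 10th percentile of all values, so log2 differences understate changes of dim transcripts. Probe sets with a mean log2 value at or above the median were kept (22519, limit at a signal of 275), and a gene was represented by its brightest kept probe set (11662 genes). For dim probe sets of the 10 genes, values come from the same fit without the filter.

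NBC was compared with placebo with limma 3.58.1 in R 4.3.3 (lmFit and eBayes, no covariate), with Benjamini-Hochberg adjustment over all kept probe sets and a threshold of 0.05. Single values and relations over arrays were tested by exact permutation. The 16 alternatives were offsets of 1 and 100, no filter and a filter at the 75th percentile, quantile normalization, median centring, 2 variance models and leaving out each mouse. No batch is given. The 10 genes, the lists and the tests were chosen with earlier results of these data known. Named are all 10 genes with every probe set, up to 3 genes of smallest p per related list, and the 3 genes most like Slc30a1 and Mt1. Of the marker lists not described in the results, endothelium had 4 of 7 measured genes above 0, smooth muscle 4 of 4, epithelium 1 of 2 and erythroid 0 of 1. Promoter sequences are from RefSeq, GRCm38.p6.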

Additional observations from a re-analysis of the deposited data

Results flagged for a closer look

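Mt2 (1428942_at) in placebo mouse 14 read 23038.6, against 35227.0 to 35894.8 in the other placebo mice. The gap to its neighbour was 0.948 of the range of the group, above Dixon's 95% critical value for 4 samples. It was 1 of 46 groups of 4 values examined, and chance gives about 1 in 20.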

How the results depend on the processing

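No paired analysis was possible because no mouse number occurs in both groups. No probe set passed the adjusted threshold under any alternative with all 8 mice. With 1 mouse left out the count ran from 0 to 19, the 19 arising without NBC mouse 9, and none of the zinc probe sets was among them. The number at an unadjusted p under 0.05, 1400 with all mice, was 2396 with no filter and 884 with a filter at the 75th percentile, where more and fewer probe sets were tested. With 1 mouse left out it lay between 1039, without placebo mouse 8, and 2556, without NBC mouse 9. Of the zinc probe sets, 2 or 3 were at an unadjusted p under 0.05 under each alternative. The number without overlap was 1 (Slc30a1 1436164_at) with median centring, 2 with the 75th percentile filter, where 8 were tested, and 3 or 4 otherwise. Over all alternatives the log2 difference ran from 0.51 to 0.66 for Slc30a1 1436164_at and from 0.44 to 0.61 for Slc39a1, with unadjusted p of at most 0.0107 and 0.0229. The gap between the Slc30a1 probe sets differed by 0.756 with quantile normalization (exact permutation p = 0.0286), and by 0.605 to 0.945 with 1 mouse left out, where the smallest possible p is above 0.05. The disagreement of this pair was known beforehand, so these p-values are no independent support. With 1 mouse left out, small differences changed sign: Slc30a5 ran from -0.068 to 0.0093, Slc30a7 1450697_at from -0.022 to 0.18, Slc39a14 1425649_at from -0.17 to 0.13, Mt1 1422557_s_at from -0.036 to 0.16, Mt1 1451612_at from -0.070 to 0.57, Mt2 from -0.11 to 0.10, Mtf1 1429170_a_at from -0.26 to 0.082, Bcl6b from -0.13 to 0.20 and Tmem247 from -0.047 to 0.34. The relation of Mt1 with Mt2 was r = 0.763 without placebo mouse 14 (exact permutation p = 0.0486, adjusted p = 0.243). The pooled values for Mt1 with Slc30a1, whose groups lie apart, and with Slc39a14 changed sign, running from -0.095 to 0.209 and from -0.229 to 0.278 with 1 mouse left out. They were -0.047 for Slc30a1 with median centring and 0.156 for Slc39a14 with quantile normalization. The causes were not tested.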
